A study of Mus musculus with 3 samples.

Results

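Complexes II to V of the mitochondrial respiratory chain were examined through 35 nuclear genes: 4 subunits of complex II (succinate dehydrogenase), 9 of complex III (the cytochrome bc1 complex), 6 of complex IV (cytochrome c oxidase), 15 of complex V (ATP synthase) and Cycs, the somatic cytochrome c. Members were found by matching the RefSeq accession of each probe to these gene symbols or their newer names. These 35 were among 36638 genes and transcripts on the array. They had 57 of its 55681 probes, and 30 of the 35 genes, with 45 probes, could be tested, out of 7424 genes and unnamed transcripts that could be tested in all.

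The study set Mettl21c knockout (KO) soleus, genotype Mettl21cLacZ/LacZ, against wildtype (WT) soleus. Mettl21c encodes a lysine methyltransferase of skeletal muscle, and the soleus is a hindlimb muscle rich in slow oxidative fibres. All mice were male C57BL/6 animals, 8 weeks old and fed regular chow, and both groups had 3 samples described as biological replicates. Each of 3 arrays, all on 1 slide, carried 1 KO sample in the red dye (Cy5) and 1 WT sample in the green dye (Cy3). The dyes were never exchanged, so a dye effect and the genotype cannot be told apart. The labels do not say whether a sample was 1 animal or a pool, so p-values measure the spread between these arrays. Mettl21c itself had log2 ratios of KO over WT of -2.93, -1.96 and -2.46 on arrays 1, 2 and 3 (mean -2.45, SD 0.48, limma adjusted p = 0.0175). Its probe was well above background in 1 of 3 KO samples and in 3 of 3 WT samples, so the size of the ratio depends on the background treatment: it was -3.53 with an offset of 16 and -6.23 in the processed signals, where it was not called (adjusted p = 0.0680). The sign was negative in every setting that gave a value. Testing all probes, dim ones included, also ended the call (limma adjusted p = 0.172), as did treating the 6 channels as unpaired samples (limma adjusted p = 0.770).

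Complex II oxidises succinate and passes its electrons to ubiquinone. Complex III moves electrons from ubiquinol to cytochrome c, a small soluble carrier, and complex IV hands them to oxygen. Protons pumped on the way return through complex V, whose membrane ring of c subunits turns a central stalk inside a catalytic head, and muscle fibres that contract for long periods depend on the ATP made there. Most subunits of these complexes are encoded in the nucleus, and many of the accessory subunits are small proteins around a conserved catalytic core.

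None of the 30 tested members passed the test in either direction (limma with Benjamini-Hochberg adjustment over all 7424 genes, adjusted p under 0.05), and among all tested genes 0% were called higher and 0.0404% lower. The signs of the members were evenly split: 15 means lay above 0 and 15 below, beside 49.1% of all tested genes above. The sizes were not, since the means ran from -0.18 to 0.76. The median log2 ratio of KO over WT was 0.0008 over the tested members (-0.01, 0.08 and 0.07 on arrays 1, 2 and 3) and -0.0027 over all tested genes. At an unadjusted limma p under 0.05, 7 members were higher in KO (23.3%, beside 5.90% of all tested genes) and 1 was lower (3.33%, beside 7.53%). The 7 were Atp5g2, Uqcr10, Uqcrh, Uqcrb, Cox5b, Atp5e and Atp5j2, and the 1 lower was Uqcrq. All 7 lay in the brightest of 5 equal groups of the tested genes, where 264 of 1485 genes had the same call. Ratios were above 0 on all 3 arrays for 10 members (33.3%, beside 17.5% of all genes) and below 0 on all 3 for 4 members (13.3%, beside 18.3%). In bulk muscle, fewer cells of a type and less RNA per cell cannot be told apart.

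**Figure D1:**
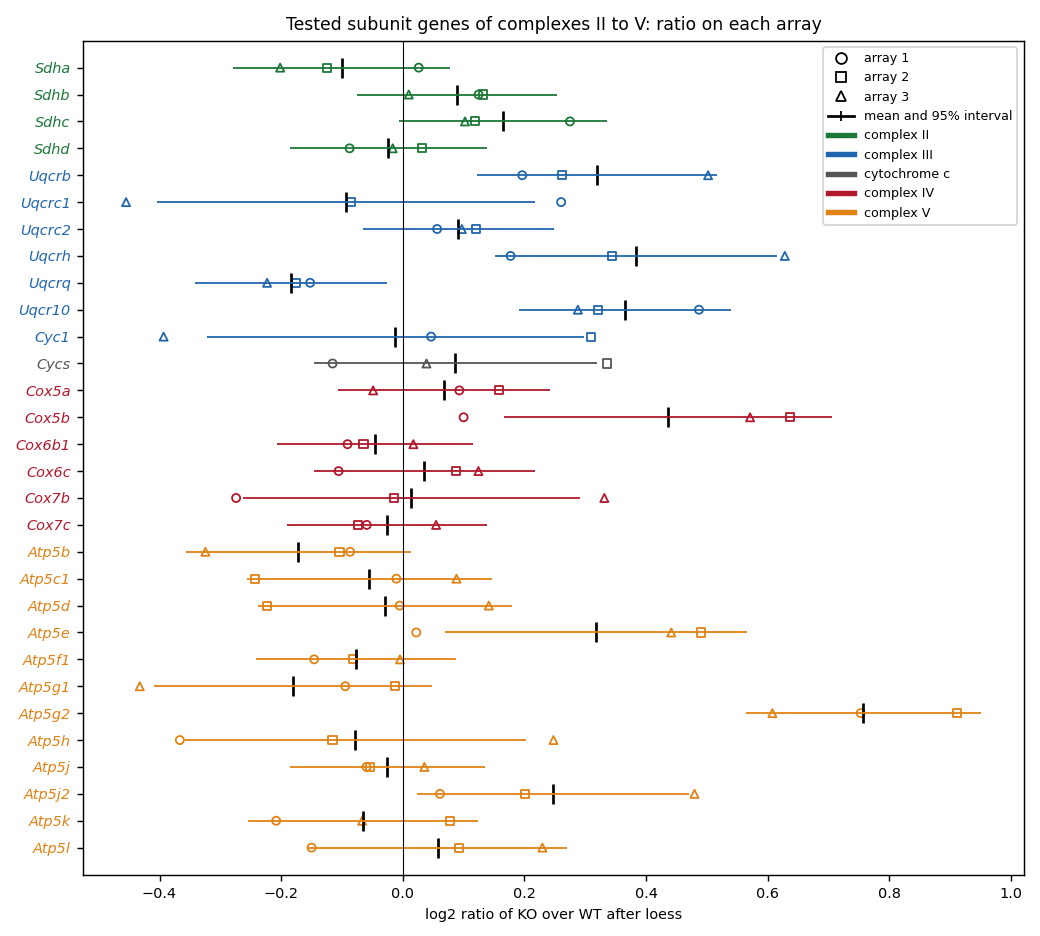
Log2 ratio of KO over WT after loess (x axis) for each of the 30 tested members (rows, ordered and coloured by complex), with 1 open symbol per array, the mean as a tick and its 95% moderated interval as a line. Atp5g2 stands farthest right at 0.75, 0.91 and 0.61 on arrays 1, 2 and 3, and the intervals of 22 of the 30 members hold 0.

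The 95% intervals of the members reached 0.16 to 0.31 log2 units to either side of the mean, with a median of 0.19. The 7 members named above had intervals wholly above 0, Uqcrq had one below 0, and 22 intervals held 0. The members varied somewhat more between arrays than other genes, with a median SD of 0.15, beside 0.12 over all tested genes. This comparison was not matched for brightness, and 19 members lay in the brightest of the 5 groups.

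Probe brightness moved with the ratio. At an average log2 intensity of 10 or more, 390 genes were tested, 81.5% of them had a mean ratio above 0 and their median was 0.20. The 9 members this bright had a median of 0.32 and 7 lay above 0, while the 21 dimmer members had a median of -0.03 and 8 above 0. In the scanner's own processed signals the 390 bright genes had a median of 0.0087, with 51.8% above 0, and the 9 bright members had a median of 0.036. With loess fitted only on spots well above background, a setting added after the data were seen, these medians were 0.023 for the bright members and 0.0062 for all bright genes. The 7 bright members with a positive mean are therefore given below with their processed value and their 100 nearest genes in brightness. Against those neighbours, 14 of the 30 members lay above the local median and the median difference was -0.0048. Uqcrb, Uqcrh and Atp5g2 exceeded at least 91 of their 100 neighbours, and the lowest by this measure, Uqcrc1, exceeded 13.

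**Figure D2:**
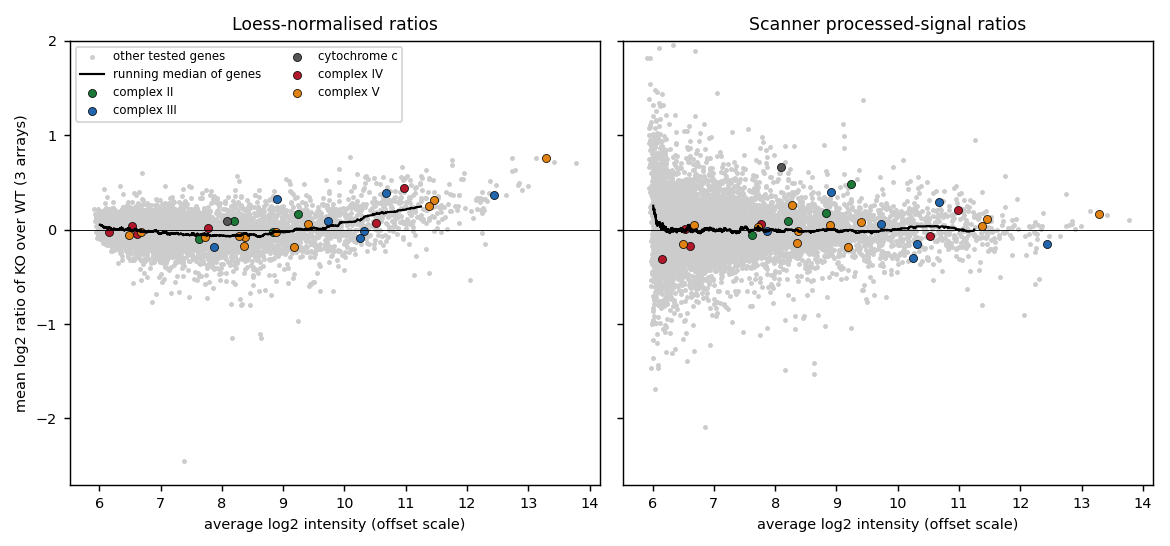
Mean log2 ratio of KO over WT over 3 arrays (y axis) against average log2 intensity (x axis) for all tested genes, as grey points, and the members in colour, with a running median as a black line; loess-normalised ratios are on the left and processed-signal ratios on the right, where a few dim genes lie outside the range drawn. The black line climbs above an intensity of 10 on the left and stays near 0 on the right, and the 9 bright members have medians of 0.32 on the left and 0.036 on the right.

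Across the 30 members the Spearman correlation of ratio with average intensity was 0.604 after loess and 0.242 in the processed signals. It was -0.082 and -0.062 over all 7424 genes, and 0.443 and 0.030 over the brightest group of 1485. These points share the same 3 arrays and the same dyes. Of the members, 19 of 30 lay in that brightest group, so the list as a whole was brighter than the array. In it the members' median was 0.07 and the median of all 1485 genes was 0.02.

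Complex II gave small ratios. Its 4 members had a median of 0.03, with 2 above 0 and 2 below, and array medians of 0.08, 0.08 and -0.0034. Sdhc, a membrane anchor that holds the haem of the complex, had log2 intensities of 10.97, 10.91 and 6.07 in the KO samples of arrays 1, 2 and 3, against 10.69, 10.80 and 5.97 in the WT samples. Array 3 was dim in both of its samples, and within each array KO was the higher. The ratios were 0.27, 0.12 and 0.10, with a mean of 0.17 (SD 0.10, n = 3 arrays, limma adjusted p = 0.386). The processed signals were 31702, 33800 and 335.5 in the KO samples and 29137, 35819 and 126.0 in the WT samples, with KO lower on array 2 and the WT sample of array 3 not well above background. Their mean log2 ratio was 0.48 (limma adjusted p = 0.584). A second Sdhc probe did not show that drop and gave a mean ratio of -0.0017. Sdha, the flavoprotein that binds succinate, had ratios of 0.03, -0.12 and -0.20 (mean -0.10, limma adjusted p = 0.624), so 2 of the 3 KO samples were lower than their WT partner. Sdhb, the iron-sulfur subunit, had 0.12, 0.13 and 0.01 (mean 0.09, limma adjusted p = 0.641), with all 3 KO samples the higher by little. Its second probe, with a value on arrays 1 and 2 only, gave 0.12 and -0.0011. Sdhd, the other membrane anchor, had a mean of -0.02.

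The Sdhc probe was not alone in being dim on array 3. Over the probes that represented the 7424 tested genes, the average intensity on 1 array was set against the mean of the other arrays, after centring on the median gap. On array 3, 56 were at least 2 log2 units lower and 81 at least 2 higher, beside 10 and 22 on array 1 and 7 and 22 on array 2. Cycs was the other member with such a drop. Its log2 intensities were 8.72, 9.52 and 6.15 in the KO samples and 8.84, 9.19 and 6.11 in the WT samples of arrays 1, 2 and 3. Neither group stood apart from the other, and the ratios of -0.12, 0.34 and 0.04 averaged 0.09 (SD 0.23, limma adjusted p = 0.766). The processed-signal mean of Cycs was 0.66, with 1.98 on array 3 and -0.16 and 0.16 on arrays 1 and 2. The second tested Cycs probe had a mean of -0.07.

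Complex III held the most members with a positive ratio on every array. Its median over 7 tested members was 0.09 (0.18, 0.26 and 0.10 on arrays 1, 2 and 3), and in the processed signals it was -0.02. The 4 tested accessory subunits had a median of 0.34 and the 3 tested core subunits a median of -0.01. That contrast was looked at after the values were seen, and it was 0.14 against -0.15 in the processed signals.

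Uqcr10, a small supernumerary subunit, had log2 intensities of 12.67, 12.58 and 12.59 in the KO samples and 12.19, 12.26 and 12.31 in the WT samples of arrays 1, 2 and 3. All KO values lay above all WT values. The ratios were 0.49, 0.32 and 0.29, with a mean of 0.37 (SD 0.11, limma adjusted p = 0.118). The same probe had processed signals of 48182, 57697 and 72833 in KO samples and 48621, 64077 and 88591 in WT samples. These run the other way on each array, and the processed mean was -0.15. Its 100 neighbours in brightness had a median of 0.29 after loess, and 67 of them lay lower than Uqcr10. Its other tested probes gave 0.26 and 0.0060. Without array 3, Uqcr10 passed the test (limma adjusted p = 0.0432, ratio 0.40), where 1.17% of all genes were called higher.

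Uqcrh, the hinge protein that sits beside cytochrome c1, had log2 intensities of 10.57, 10.55 and 11.47 in the KO samples and 10.40, 10.21 and 10.84 in the WT samples. KO was the higher within each array, though the groups overlapped because array 3 was brighter in both. Ratios of 0.18, 0.34 and 0.63 averaged 0.38 (SD 0.23, limma adjusted p = 0.175), the processed mean was 0.29, and 91 of 100 neighbours in brightness lay lower. Its second probe gave 0.25, so both probes of Uqcrh pointed the same way.

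Uqcrb, a ubiquinone-binding supernumerary subunit, is read by a dimmer probe. It had 8.77, 8.91 and 9.52 in the KO samples and 8.57, 8.65 and 9.02 in the WT samples, again on the log2 intensity scale. KO exceeded WT within every array, and the groups overlapped. The ratios of 0.20, 0.26 and 0.50 had a mean of 0.32 (SD 0.16, limma adjusted p = 0.178), the processed mean was 0.40, and 98 of 100 neighbours lay lower. With loess on spots well above background the mean was 0.33, so these 3 scales gave Uqcrb similar values. A dim second probe gave 0.15. The last of its probes was too dim to be tested.

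The remaining members of complex III had smaller or mixed ratios, or were not tested. Uqcrq, another supernumerary subunit, was lower in KO on each array (-0.15, -0.17 and -0.22, mean -0.18, limma adjusted p = 0.305). The core protein Uqcrc2 lay above 0 on each array, with a mean of 0.09. Uqcrc1, its partner core protein, had a mean of -0.09, and Cyc1, the cytochrome c1 that carries the haem, had -0.01. Uqcrc1 had 0.26 on array 1 and -0.46 on array 3, and Cyc1 had 0.31 on array 2 and -0.39 on array 3, so both differed in sign between arrays. Uqcr11 had 0.22 and 0.52 on arrays 1 and 2 and a spot with an outlier flag on array 3, and was not tested. Its processed signals on arrays 1 and 2 were 23356 and 27441 in the KO samples and 23486 and 23024 in the WT samples. Uqcrfs1, the Rieske iron-sulfur protein, was well above background on 2 of 3 arrays only and was not tested.

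**Figure D3:**
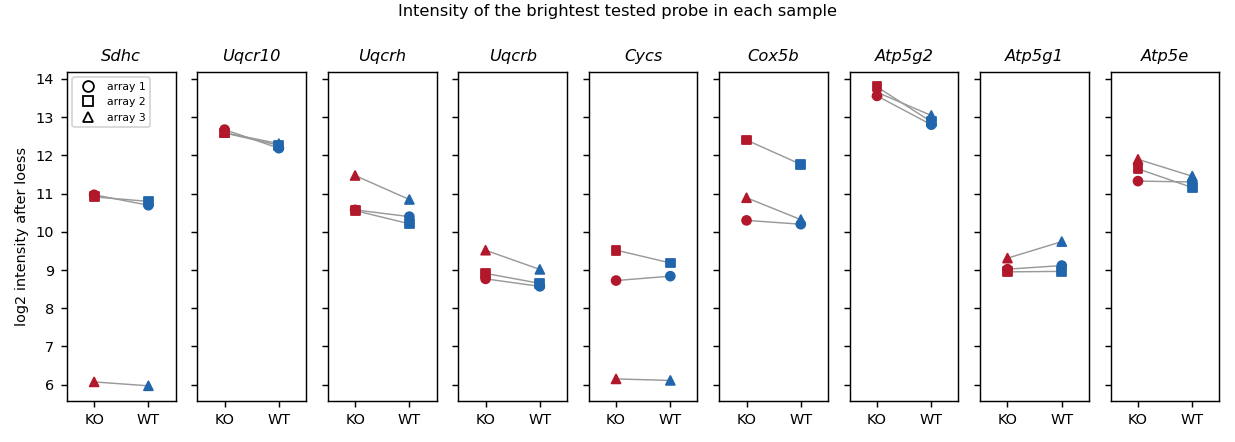
Log2 intensity after loess (y axis) of the brightest tested probe of 9 members in each KO and WT sample, with a symbol per array and a line joining the samples hybridised together. KO exceeded WT in all 3 pairs for Sdhc, Uqcr10, Uqcrh, Uqcrb, Cox5b, Atp5g2 and Atp5e, and WT exceeded KO in all 3 for Atp5g1; the dim pairs of Sdhc and Cycs are array 3.

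Complex IV was represented by 6 nuclear accessory subunits, with a median of 0.02 after loess (-0.08, 0.04 and 0.09 on arrays 1, 2 and 3) and -0.03 in the processed signals. Cox5b had log2 intensities of 10.30, 12.40 and 10.89 in the KO samples and 10.20, 11.76 and 10.32 in the WT samples. Array 2 was the brighter in both groups, and within each array the KO sample was higher. The ratios were 0.10, 0.64 and 0.57, and the mean of 0.44 (SD 0.29, limma adjusted p = 0.178) was accompanied by a processed mean of 0.21. Of its neighbours in brightness 87 of 100 lay lower. Cox5a, like Cox5b a matrix-side subunit, had 0.09, 0.16 and -0.05 (mean 0.07, limma adjusted p = 0.758). Its processed mean of -0.07 had the opposite sign, and 34 of 100 neighbours in brightness lay lower. Cox6b1, an intermembrane-space subunit, had -0.09, -0.06 and 0.02 (mean -0.05, limma adjusted p = 0.821).

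Means of Cox6c, Cox7b and Cox7c were 0.04, 0.01 and -0.03. Cox7b had -0.27 on array 1 and 0.33 on array 3. The Cox7c value came from a dim probe with an average log2 intensity of 6.15. A much brighter Cox7c probe had log2 intensities of 13.29 and 13.56 in the KO samples and 12.82 and 12.66 in the WT samples of arrays 1 and 2, with ratios of 0.47 and 0.90. Its processed signals on these arrays were 125678 and 172296 in the KO samples and 126398 and 142581 in the WT samples. On that scale KO was not the higher on array 1. Its spot on array 3 carried an outlier flag, so that probe was left out. When spots with that flag were kept, the bright probe stood for the gene and Cox7c had a mean of 0.74.

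In complex V, 12 of 15 members were tested and 8 of them lay below 0, with a median of -0.04 (-0.07, -0.03 and 0.11 on arrays 1, 2 and 3). The processed signals gave a median of 0.04, with 8 of the 12 above 0. By position in the enzyme, the 4 tested subunits of the head and central stalk had a median of -0.04, the 3 of the peripheral stalk -0.08 and the 5 of the membrane part 0.06.

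The membrane ring is built from c subunits, whose genes Atp5g1, Atp5g2 and Atp5g3 encode the same mature protein behind different targeting sequences. Atp5g2 was the member with the smallest p. It had log2 intensities of 13.56, 13.79 and 13.65 in the KO samples and 12.80, 12.88 and 13.04 in the WT samples of arrays 1, 2 and 3. Every KO sample lay above every WT sample. The ratios were 0.75, 0.91 and 0.61 with a mean of 0.76, a 1.69-fold difference (SD 0.15, n = 3 arrays), and the limma adjusted p of 0.0511 missed the threshold. Over the alternatives tried the adjusted p ran from 0.00235 to 0.980. Atp5g2 passed as higher in KO with robust and trended moderation (adjusted p = 0.0103, where 0.552% of all genes were called higher) and with array weights (adjusted p = 0.0215, 0.606% called higher). It also passed without array 2 (adjusted p = 0.0457, 0.0539% called higher), without array 3 (adjusted p = 0.00235, 1.17% called higher) and when all spots of a probe had to be well above background (adjusted p = 0.0455, 0.0409% called higher).

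Other scalings gave smaller values for the same probe. Its processed signals were 138736, 195619 and 172039 in the KO samples and 123844, 176976 and 152419 in the WT samples. KO was again the higher on each array, but by a mean of 0.16 on the log2 scale (limma adjusted p = 0.612). In these signals the groups overlapped, unlike in the intensities after loess. With loess fitted on spots well above background the mean was 0.32 (limma adjusted p = 0.190). Without loess it turned negative. With median centring it passed as lower in KO (-0.58, limma adjusted p = 0.00247), where 66.2% of all genes were called lower, and with centring on the tested probes it had -0.14 (adjusted p = 0.226). The 100 genes nearest in brightness had a median of 0.30 after loess, and 99 of them lay lower than Atp5g2. A second, dimmer Atp5g2 probe had ratios of -0.03, -0.03 and -0.21 and a mean of -0.09, so the probes of this gene disagreed in sign.

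Its paralogue Atp5g1 had log2 intensities of 9.02, 8.95 and 9.31 in the KO samples and 9.12, 8.96 and 9.74 in the WT samples. KO was lower within each array, by little on arrays 1 and 2. The mean ratio was -0.18 (-0.09, -0.01 and -0.43, SD 0.22, limma adjusted p = 0.480), with a processed mean of -0.19. Atp5g3 was not tested because array 3 carried an outlier flag. On arrays 1 and 2 it had 8.97 and 9.39 in the KO samples and 8.66 and 8.98 in the WT samples, with ratios of 0.31 and 0.42. Cross-hybridisation between these related transcripts was not tested.

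The 120 bases before the annotated start of each c subunit gene are shown because Atp5g1 and Atp5g2 had mean ratios of opposite sign. Neither was called in the reported fit, and the second Atp5g2 probe had the sign of Atp5g1. The stretch of Uqcrh is shown because both of its probes lay above 0. Every tested probe of Uqcrb, of Uqcr10 and of Atp5l lay above 0 as well, and their stretches are not printed. For Uqcrb no promoter sequence was held. The stretches are from RefSeq, build GRCm38.p6, each read 5′ to 3′ on the strand of the gene. Capitals mark motif letters on either strand: an NRF1 motif in Atp5g2, an ESRRA motif in Atp5g3 and an ETS motif in Uqcrh. Atp5g1 had none of the 4 motifs searched. Atp5g3 also held an NRF1 motif, outside the stretch printed. The positions are chr11:96075632-96075751 (minus strand) for Atp5g1, chr15:102671048-102671167 (minus) for Atp5g2, chr2:73911327-73911446 (minus) for Atp5g3 and chr4:116075071-116075190 (minus) for Uqcrh.
Atp5g1: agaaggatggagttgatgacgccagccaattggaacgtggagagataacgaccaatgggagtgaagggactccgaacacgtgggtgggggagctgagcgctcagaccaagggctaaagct
Atp5g2: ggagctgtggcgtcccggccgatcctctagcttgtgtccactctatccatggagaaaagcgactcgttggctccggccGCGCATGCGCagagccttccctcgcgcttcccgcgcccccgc
Atp5g3: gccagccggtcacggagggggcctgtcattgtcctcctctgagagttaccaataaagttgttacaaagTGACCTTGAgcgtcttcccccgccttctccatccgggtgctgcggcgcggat
Uqcrh: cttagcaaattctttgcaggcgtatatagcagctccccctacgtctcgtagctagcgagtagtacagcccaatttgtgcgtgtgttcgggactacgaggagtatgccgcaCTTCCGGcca

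Promoter windows of 250 bases before to 50 after the start were held for 28 of the 35 members, in 31 windows, and 18 members had at least 1 of the 4 motifs on either strand. NRF1, ETS factors such as GABPA, YY1 and ESRRA are known regulators of nuclear genes of mitochondria. The NRF1 motif, the capitals of Atp5g2 above with any base allowed at 1 middle place, stood in 9 of the 31 windows (29.0%), beside 4.60% of 32851 windows of all genes. The ETS letters CCGGAAG stood in 10 (32.3%, beside 8.86%), the YY1 letters AAGATGGC in 3 (9.7%, beside 2.75%) and the ESRRA letters TCAAGGTCA in 2 (6.5%, beside 0.42%). A match describes the sequence only. Sdhd held 3 of the 4 motifs and had a mean ratio of -0.02, while Uqcr10 and Cox5b held none and had 0.37 and 0.44.

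Among the other subunits of complex V, the pair after Atp5g2 in order of p were Atp5e and Atp5j2. Atp5e, the epsilon subunit of the central stalk, had log2 intensities of 11.33, 11.65 and 11.90 in the KO samples and 11.30, 11.16 and 11.45 in the WT samples. The groups overlapped, with KO and WT nearly equal on array 1. Its ratios were 0.02, 0.49 and 0.44 (mean 0.32, SD 0.26, limma adjusted p = 0.270), its processed mean was 0.12, and 66 of 100 neighbours in brightness lay lower. Atp5j2, subunit f of the membrane part, had 11.29, 11.34 and 11.86 in the KO samples and 11.23, 11.14 and 11.38 in the WT samples. KO was the higher in each pair, but array 3 was the brighter in both groups. Its ratios were 0.06, 0.20 and 0.48 (mean 0.25, SD 0.21, limma adjusted p = 0.325), the processed mean was 0.04, and 59 of 100 neighbours in brightness lay lower. Its second probe gave -0.05.

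Atp5b, the catalytic beta subunit, was lower in KO on each array, at -0.09, -0.10 and -0.32 (mean -0.17, SD 0.13, limma adjusted p = 0.403). Its processed mean of -0.14 had the same sign. Among the other F1 subunits Atp5c1 (gamma) had a mean of -0.06 and Atp5d (delta) -0.03. In the peripheral stalk, which holds the head still, Atp5f1, Atp5h and Atp5j had means of -0.08, -0.08 and -0.03. Atp5h had -0.37 on array 1 and 0.25 on array 3. The membrane subunits Atp5k and Atp5l had -0.07 and 0.06. Atp5a1, the alpha subunit, and Atp5o, of the peripheral stalk, were well above background on 2 of 3 arrays and were not tested.

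Several members could be read with more than 1 probe. In 8 of the 11 genes with several tested probes the brightest had the highest ratio, the exceptions being Atp5h, Atp5k and Atp5l. Atp5g2 was the widest pair, with its probes 0.85 apart, and Uqcr10 followed at 0.36. For Atp5l, with 5 tested probes, the 4 dimmer ones lay between 0.0083 and 0.14 and the brightest at 0.06. Atp5h had 0.13 at its second probe, Atp5k -0.0072 and Atp5f1 -0.08. In the processed signals the brightest probe was the highest in fewer of these genes: Uqcrb, Uqcr10 and Atp5j2 joined Atp5h and Atp5l as exceptions, and Atp5k left them.

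**Figure D4:**
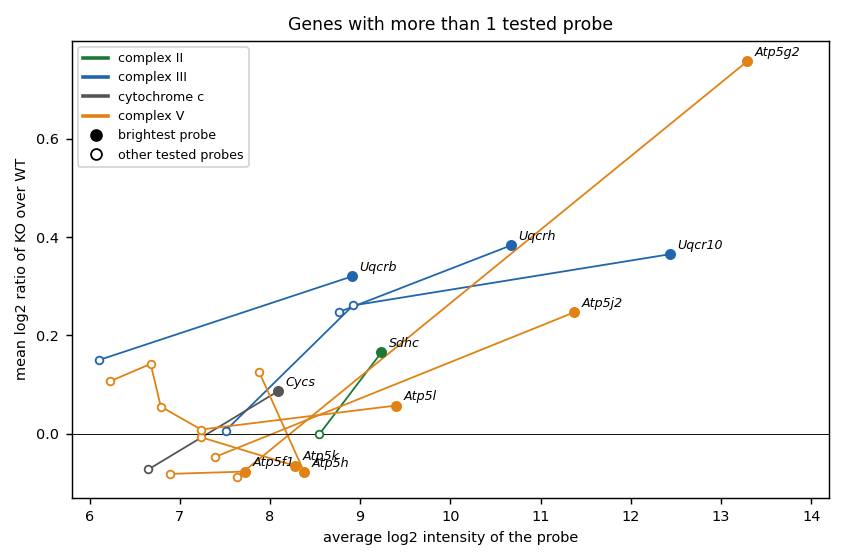
Mean log2 ratio of KO over WT (y axis) against the average log2 intensity of each probe (x axis) for the 11 members with more than 1 tested probe, with lines joining the probes of a gene and a filled point for the brightest. Atp5g2 spans from -0.09 at its dim probe to 0.76 at its bright one, and the brightest probe is the highest in 8 of the 11 genes.

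Compared by complex, the medians lay close to that of all genes. After loess the medians were 0.03, 0.09, 0.02 and -0.04 for complexes II, III, IV and V, with SDs between the array medians of 0.05, 0.08, 0.08 and 0.10, beside -0.0027 for all tested genes. In the processed signals they were 0.14, -0.02, -0.03 and 0.04, so the sign differed for complexes III, IV and V. The processed array medians of complex II were 0.11, 0.07 and -0.08 on arrays 1, 2 and 3, all below its 0.14. Members measured against their neighbours in brightness gave median differences of 0.06, 0.06, 0.0061 and -0.01. From highest to lowest the order was III, II, IV and V both after loess and against the neighbours. In the processed signals it was II, V, III and IV. Without loess, median centring called 29 of 30 members lower, where 66.2% of all genes were called lower, and centring on the tested probes called 17 lower, where 22.1% were.

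**Figure D5:**
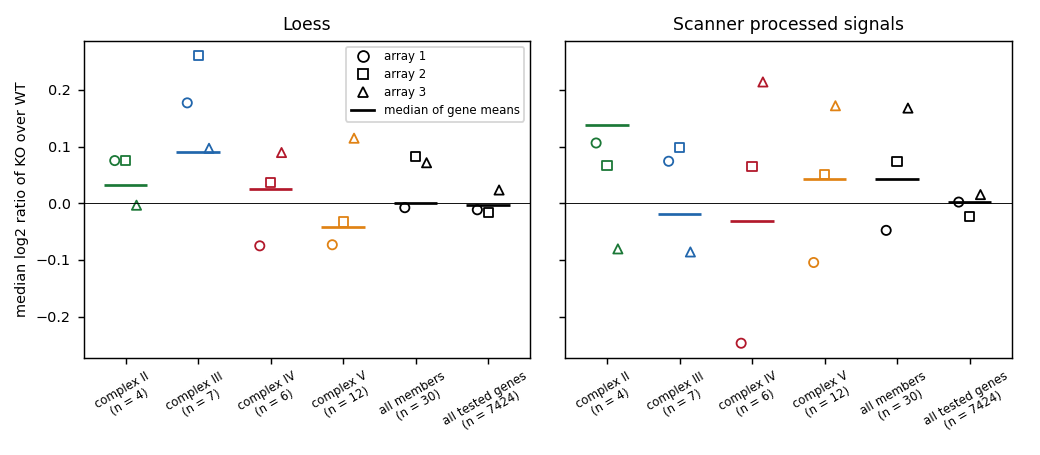
Median log2 ratio of KO over WT (y axis) over the tested members of each complex, all members and all tested genes (x axis, with the number of genes), after loess on the left and in the processed signals on the right; symbols are the medians of each array and the bar is the median of the gene means. The bars for complexes II to V lie between -0.04 and 0.09 on the left and between -0.03 and 0.14 on the right, and the array medians of complex III after loess (0.18, 0.26 and 0.10) all lie above its bar of 0.09.

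Agreement between arrays was partial. Over the 30 members the ratios of arrays 1 and 2 correlated at 0.633, those of arrays 1 and 3 at 0.312 and those of arrays 2 and 3 at 0.592. Over all 7424 genes these correlations were 0.350, 0.206 and 0.333. The points share probes, dyes and slide, and the members are brighter than most genes.

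Genes that work with these complexes were read in 3 lists, and none of them passed the test. Of 34 assembly factors and the ATP synthase inhibitor, 15 were tested and had a median of -0.02, with 5 above 0 and 10 below. Uqcc1, an assembly factor of complex III, had -0.21 (limma adjusted p = 0.313) and a processed mean of 0.01, and Cox19, an assembly factor of complex IV, had 0.24 (adjusted p = 0.374) and a processed mean of 0.11. Of 13 other cytochrome c oxidase subunits, 9 were tested, 7 lay above 0 and the median was 0.16. At an unadjusted limma p under 0.05, 4 of the 9 were higher in KO, beside 5.90% of all tested genes. These were Cox8a, Cox7a1, Cox4i1 and Cox6a1, with average log2 intensities of 11.87 to 13.41 and processed means of 0.03 to 0.15. The bright Cox7a1, the muscle form of subunit VIIa, had 0.35, 0.90 and 0.91 (mean 0.72, limma adjusted p = 0.0883) with a processed mean of 0.15, and Cox8a had a mean of 0.53 (adjusted p = 0.0883) with a processed mean of 0.05. Of 36 complex I subunits, 31 were tested, 20 lay above 0 and the median was 0.06. Ndufs6 had 0.53 (limma adjusted p = 0.0947, processed mean 0.12) and Ndufb8 had 0.35 (limma adjusted p = 0.150, processed mean 0.18). By an unadjusted limma p under 0.05, 4 were higher in KO and 3 lower, beside 5.90% and 7.53% of all tested genes.

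Markers of fibre type and of other cells in dissected muscle were read beside the members, and none passed the test. Slow-fibre markers were tested for 8 of 10 genes (median 0.18, 6 above 0, from -1.14 to 0.49) and fast-fibre markers for 9 of 12 (median -0.15, 3 above 0). In the processed signals the slow-fibre median was 0.01, with 4 above 0, and the fast-fibre median was -0.17, with 2 above 0. Their summed processed signals overlapped, at 319000 to 354211 in KO samples and 286319 to 382507 in WT samples for slow, and 185772 to 450514 in KO samples and 253941 to 397933 in WT samples for fast. Red blood cell genes, 3 of 7 tested, had a median of 0.21 and sums of 49374 to 120214 in KO samples against 30998 to 41735 in WT samples, which did not overlap. Adipocyte genes, 5 of 8 tested, had a median of 0.13 and sums of 7989 to 8770 in KO samples against 4991 to 7744 in WT samples, which did not overlap either. Of these genes, Cidec, Lep and Ucp1 were not well above background. Macrophage and leukocyte genes, 7 of 11 tested, had a median of -0.23, with all 7 below 0, and overlapping sums of 7160 to 11292 in KO samples and 7934 to 16328 in WT samples. Tendon and fibroblast genes (6 of 9 tested) and endothelial genes (4 of 7 tested) had medians of -0.03 and -0.05. Their sums overlapped, at 21487 to 46265 in KO samples and 17123 to 61209 in WT samples for tendon and fibroblast, and 8506 to 17621 in KO samples and 9872 to 10758 in WT samples for endothelial. The part of these cells in the member ratios was not tested.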

How the data were processed

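Soleus RNA of 3 KO (Cy5) and 3 WT (Cy3) samples was compared on 3 Agilent arrays. The deposited scanner files give the intensity of each spot and its local background as medians, with flags and a processed signal that the scanner software background-subtracted and dye-normalised, written, per the file headers, by Feature Extraction 12.0.3.1 (11.5 per the submitters' processing notes). The deposited value table holds log10 ratios of KO over WT, equal to the scanner's to within 5e-10 on arrays 1 and 2 and 0.005 on array 3, with column medians of 0 and 28540, 29526 and 32272 spots at 0. It was an alternative.

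In limma 3.58.1 (R 4.3.3), median intensities were corrected with normexp (offset 50) and loess within each array, with control spots and outlier flags (536, 572 and 1002 spots) at weight 0, flagged spots then being dropped. No spot (0) was saturated. In KO samples 22.8%, 22.5% and 22.9% of spots were well above background, and in WT samples 22.8%, 23.6% and 20.4%. Spots of a probe were averaged. Tested probes had a value on every array and, in 1 channel or both, at least 50% of their unflagged spots well above background on every array. Log2 ratios, computed from the deposited intensities, were tested against 0 with eBayes and Benjamini-Hochberg adjustment over 7424 genes, each by its brightest tested probe. The offset of 50, against median backgrounds of 17 in KO and 32 to 36 in WT samples, shrinks the ratios of dim probes. Symbols came from RefSeq (GRCm38.p6), which matched 28664 of 29472 probes with a RefSeq accession. The number of arrays limits the precision.

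Every member was accounted for, with array values for the 3 members of smallest p of complexes II, III and IV, the 4 of complex V, Cycs and the c subunit genes, and 2 genes of smallest p per related list. The members and lists were chosen with earlier results of these data known. The array pairs its own samples, so the ratio is the paired analysis. The steps were run on simulated data with a constant dye ratio and with a dye ratio that changed with the signal. Pass limits were set for the constant ratio only, so they do not cover the rise of ratios with brightness.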

Additional observations from a re-analysis of the deposited data

How the results depend on the processing

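No member was called in the reported fit. One member was called (1) with robust and trended moderation, with array weights and when all spots of a probe had to be well above background, Atp5g2 each time, and leaving out 1 array at a time gave between 0 and 2. The rule on all spots, and loess fitted on spots well above background, were added after the data were seen. The 2 were Uqcr10 and Atp5g2 without array 3. Median centring without loess called 29 of 30 members lower, with the median of all genes at -0.45, and centring on the tested probes called 17 lower, where 22.1% of all genes were called lower and 13.7% higher. As an unpaired analysis, the 6 channels as separate samples with no replicate block gave 0 calls among the members.

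Under median centring the medians were -0.75 for all members and -0.68, -0.85, -0.52 and -0.81 for complexes II to V. The members that turned negative were Sdhb at -0.63, Sdhc at -0.63, Uqcrb at -0.49, Uqcrc2 at -0.82, Uqcrh at -0.64, Uqcr10 at -0.87, Cycs at -0.57, Cox5a at -0.94, Cox5b at -0.64, Cox6c at -0.30, Cox7b at -0.63, Atp5e at -0.81, Atp5g2 at -0.58, Atp5j2 at -0.86 and Atp5l at -0.81. Under centring on the tested probes the medians were -0.32 for all members and -0.24, -0.41, -0.082 and -0.37 for complexes II to V. There Sdhb had -0.19, Sdhc -0.19, Uqcrb -0.049, Uqcrc2 -0.38, Uqcrh -0.20, Uqcr10 -0.43, Cycs -0.13, Cox5a -0.51, Cox5b -0.20, Cox7b -0.19, Atp5e -0.37, Atp5g2 -0.14, Atp5j2 -0.43 and Atp5l -0.37, and Cox6b1 (0.032), Cox7c (0.23), Atp5c1 (0.061) and Atp5j (0.030) turned positive.

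In the processed signals the medians of complexes II and III were 0.14 and -0.019. The signs turned for Sdhd (0.18), Uqcr10 (-0.15), Cox5a (-0.067), Atp5d (0.049), Atp5f1 (0.030), Atp5j (0.052) and Atp5k (0.26), and the value table gave the same values to 2 decimals. Without background subtraction the median of complex II was 0.15, Sdhd had 0.15 and Cox5a -0.027. Single values turned sign in Sdhd with an offset of 16 (0.0001), Sdhc when both channels had to be well above background (-0.0017), Cox7c with flagged spots kept (0.74), Atp5h with the mean over probes (0.024), Cyc1 (0.090) and Cox7b (-0.043) with array weights, and Cox5a with loess on spots well above background (-0.072). For Sdhc and Cox7c another probe then stood for the gene, and the value of Atp5h was averaged over its probes. The cause of the other changes was not tested.

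Leaving out 1 array at a time gave medians of -0.018 to 0.060 for all members and 0.077 to 0.18 for complex III. Means ran from -0.052 to 0.0076 for Sdhd, -0.27 to 0.087 for Uqcrc1, -0.17 to 0.18 for Cyc1, -0.038 to 0.19 for Cycs, -0.0089 to 0.11 for Cox6c, -0.14 to 0.16 for Cox7b, -0.13 to 0.039 for Atp5c1, -0.11 to 0.068 for Atp5d, -0.24 to 0.066 for Atp5h, -0.14 to 0.0056 for Atp5k and -0.029 to 0.16 for Atp5l.

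The limits are those of 3 arrays on 1 slide with fixed dyes. The unadjusted 95% intervals reached a median of 0.19 (log2) to either side of the mean, and the test adjusted over all genes is stricter: Atp5g2 at 0.76 was not called. For dim probes such as that of Cox7c the offset narrows the ratios further.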
